A study of Mus musculus with 12 samples.

Results

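The Id family of helix-loop-helix (HLH) inhibitors was followed through 12 mouse RNA-seq libraries. Its members were the rows named Id1, Id2, Id3 and Id4, 4 of the 22549 gene symbols listed for each library, and all 4 were present in every library. They were made from spermatogonial stem cells (mSSC), which maintain the male germ line, of wild-type DBA/C57 F1 males that were 5 to 7 days old. In the treatment experiment, mSSC kept on laminin were exposed for 24 h to vehicle, to retinoic acid (RA, 100 nM), or to the same dose of RA with cycloheximide (CHX, 0.25 mg/ml), a blocker of protein synthesis. CHX without RA was not among the groups. In the induction experiment, mSSC with no treatment named were set beside GFP-carrying mSSC grown on Sertoli cells of pups that mitomycin had inactivated. Day 3 cells that were positive for both GFP and c-KIT are labelled induced differentiating spermatogonia, idSG for short. Day 6 cells with GFP but without c-KIT are labelled induced spermatocytes, iSC for short. A group is 2 biological replicates, and every mean ± SD is over n = 2 libraries.

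Id proteins carry the HLH domain through which these factors pair, but lack the basic stretch that touches DNA. They pair with the E proteins, the widely made basic HLH (bHLH) factors encoded by Tcf3, Tcf4 and Tcf12, and keep them and their cell-type-specific partners from binding E-boxes in DNA. Bone morphogenetic proteins (BMP) raise transcription of Id genes through SMAD factors in many cell types, and in the mouse testis Id4 marks the stem cells among undifferentiated spermatogonia.

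The labels were checked against marker genes. The germ cell markers Ddx4 and Dazl stood between 145 and 238 FPKM and between 409 and 669 FPKM in all 12 libraries. Stra8, which RA induces, had a mean of 23.6 FPKM with vehicle, 561 with RA and 916 with RA and CHX. Kit had a mean of 2.15 FPKM in mSSC, 85.6 in idSG and 6.89 in iSC. The sorts were gated on c-KIT, so Kit is no separate check of the idSG and iSC labels. Of 5 listed spermatocyte markers, 4 were tested in iSC against mSSC. All 4 were called higher by limma, beside 26.2% of all genes. The deposited FPKM summed to between 459580 and 540064 in the libraries, the vehicle library with repeated lines among them after these were counted once. Relative depth read from the lowest values was 84.2% to 99.5% of the first library of each experiment, and absolute depth is not known from FPKM. Across genes, which are not independent replicates, log2 values of the replicates of a group correlated at r = 0.987 to 0.998. Between replicates, 21 to 518 genes were more than 2-fold apart, the fewest with vehicle and the most in iSC. Between 254 and 518 genes were that far apart in mSSC, idSG and iSC, and 21 to 37 in the treatment groups.

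The members lie on different chromosomes, Id1 on chromosome 2, Id2 on 12, Id3 on 4 and Id4 on 13. Promoter windows from RefSeq (GRCm38.p6, 250 bases before to 50 after the start) matched 3 of the 4 members by symbol and are shown because these genes moved together in some comparisons and apart in others. Id2 is chr12:25096043-25096342 on the minus strand, Id3 chr4:136143572-136143871 on the plus strand and Id4 chr13:48260866-48261165 on the plus strand. Each is written 5′ to 3′ along the gene, with capitals for any match to the motifs searched.
Id2: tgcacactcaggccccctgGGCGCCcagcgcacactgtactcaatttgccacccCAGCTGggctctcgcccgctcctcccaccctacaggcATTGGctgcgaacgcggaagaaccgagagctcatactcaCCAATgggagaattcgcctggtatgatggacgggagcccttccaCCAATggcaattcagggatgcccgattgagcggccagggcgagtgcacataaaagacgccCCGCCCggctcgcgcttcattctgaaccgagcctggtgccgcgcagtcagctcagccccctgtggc
Id3: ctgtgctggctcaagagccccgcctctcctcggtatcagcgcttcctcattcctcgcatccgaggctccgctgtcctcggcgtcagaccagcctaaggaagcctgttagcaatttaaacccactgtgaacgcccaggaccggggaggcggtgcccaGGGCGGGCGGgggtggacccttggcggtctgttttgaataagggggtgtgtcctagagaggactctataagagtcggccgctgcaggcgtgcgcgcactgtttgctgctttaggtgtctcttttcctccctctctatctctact
Id4: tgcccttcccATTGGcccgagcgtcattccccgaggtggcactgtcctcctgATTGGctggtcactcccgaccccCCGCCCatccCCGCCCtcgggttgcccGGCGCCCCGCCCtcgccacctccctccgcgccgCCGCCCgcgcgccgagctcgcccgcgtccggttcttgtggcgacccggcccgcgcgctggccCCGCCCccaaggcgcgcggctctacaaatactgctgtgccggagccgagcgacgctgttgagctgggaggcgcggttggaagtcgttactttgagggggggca

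Letters were searched on both strands, and capitals can join overlapping matches. CCAAT (bound by NF-Y) was found 3 times in the Id2 window, 2 times in the Id4 window and 0 times in the Id3 window, against 37.4% of 32851 windows of this length that held it. GGGCGG (the GC box of SP factors) was found 1, 2 and 5 times in the Id2, Id3 and Id4 windows, against 35.7% of windows, and the 2 matches in Id3 overlap. The E-box CANNTG was found 1 time, in the Id2 window as CAGCTG, and in neither of the other windows, while 72.3% of all windows held it. GGCGCC, a GC-rich SMAD site, was found 1 time in the Id2 window and 1 time in the Id4 window, against 11.9% of windows. The TATA box letters TATAAA, held by 13.6% of windows, were in none of the 3. The same was true of TGACGT, part of the CREB site, held by 7.51% of windows. It was also true of AGGTCA, the repeat unit of RA receptor sites, held by 16.3% of windows. G and C made up 63.3%, 60% and 73.3% of the Id2, Id3 and Id4 windows, beside a median of 52.7% over all windows. The shares above count windows with at least 1 match and were not matched for G and C content. A match describes letters in this window and not a bound site.

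In stem cells the family was mostly Id3 and Id4. With vehicle, Id3 was the most abundant member at 80.2 and 90.3 FPKM in the 2 libraries, followed by Id4 at 42.7 and 42.3 FPKM and Id1 at 12.5 and 16.9 FPKM. Id2 was close to absent, at 0.0281 and 0.0566 FPKM. The 4 members did not overlap in level in either library, and FPKM are per length, so the levels of different genes can be set side by side. In untreated mSSC the order was the same. There Id3 stood at 51.2 and 41.1 FPKM, Id4 at 19.1 and 29.1 FPKM, Id1 at 12.6 and 12.2 FPKM and Id2 at 0.145 and 1.13 FPKM. The 2 mSSC libraries thus differed 7.79-fold in Id2, the largest gap between replicates of any member in any group.

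**Figure D1:**
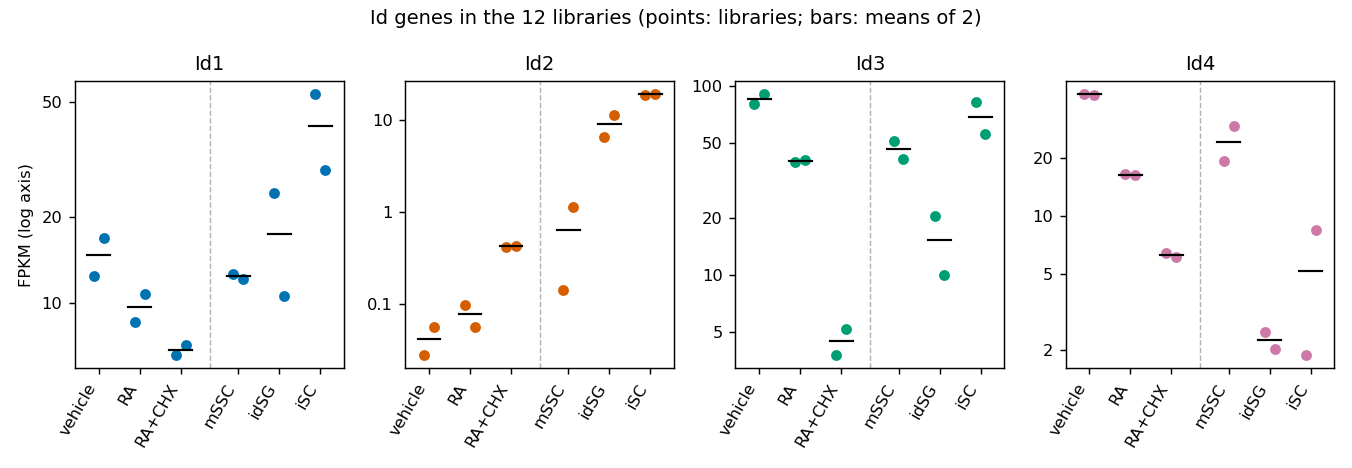
FPKM of Id1, Id2, Id3 and Id4 (log axis, a separate range for each panel) in the 6 groups, with a point for each library, a bar for the mean of 2 libraries and a dashed line between the 2 experiments. Id3 and Id4 fell stepwise from vehicle to RA to RA with CHX, and Id2 was at most 1.13 FPKM in every library except those of idSG and iSC, where it was between 6.49 and 18.8 FPKM.

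RA was set against vehicle to ask how transcripts respond within 24 h. Id4, Id3 and Id1 all fell. In bulk RNA, fewer cells of a type and less RNA per cell cannot be told apart. Id4 stood at 16.4 and 16.2 FPKM with RA against 42.7 and 42.3 FPKM with vehicle, a drop of 2.61-fold with replicates within 1 FPKM of each other. Its log2 fold change was -1.33 ± 0.04 SE (limma adjusted p = 5.06e-06). Id3 stood at 39.5 and 40.3 FPKM with RA and was 2.13-fold lower than with vehicle, at a log2 fold change of -1.07 ± 0.12 SE (limma adjusted p = 0.000398). The libraries of the 2 groups did not overlap for either gene. The share of all genes without overlap was not counted in any comparison, so this describes the members only.

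Id1 fell least, from 14.7 ± 3.12 to 9.72 ± 1.53 FPKM, a log2 fold change of -0.54 ± 0.14 SE (limma adjusted p = 0.0168). Its libraries did not overlap, but the lower vehicle library, at 12.5 FPKM, lay close to the higher RA library, at 10.8 FPKM. The call was lost without RA replicate 1 (adjusted p = 0.0981) and without vehicle replicate 2 (adjusted p = 0.0729), and over 16 alternatives the adjusted p ran from 0.0018 to 0.417. Id2 stayed under the level tested, a mean of 1 FPKM over the 6 libraries, at 0.0994 and 0.0576 FPKM with RA. Thus 3 of 3 tested members were lower, where 52.7% of 12339 genes were called, 22.8% higher and 29.9% lower. Higher genes made up 43.3% of the calls as deposited and 55.2% of them when the libraries were quantile normalized, and all 3 members were lower under both. In 1 fit of all 12 libraries, 418 genes were called and none of the 3 members was. The adjusted p then was 0.125 for Id4, 0.0816 for Id3 and 0.417 for Id1, each the top of its range over 16 alternatives, which began at 3.62e-06, 0.000199 and 0.0018. Beside these falls, the 6 stem and progenitor markers (Zbtb16, Gfra1, Etv5, Ret, Nanos2 and Lhx1) summed to 494 and 473 FPKM with vehicle, 286 and 278 FPKM with RA and 66.0 and 67.2 FPKM with RA and CHX. All 6 were called lower in each of the 3 treatment comparisons, and their part in the Id levels was not tested.

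RA with CHX was set against vehicle, the same vehicle libraries as above, to ask which changes appear while protein synthesis is blocked. Id3 dropped the furthest, to 3.76 and 5.20 FPKM, from the most abundant member to a level under those of Id1 and Id4. That was 19.0-fold under vehicle, at a log2 fold change of -3.99 ± 0.12 SE (limma adjusted p = 1.82e-07). Id4 stood at 6.43 and 6.11 FPKM, 6.78-fold under vehicle, at a log2 fold change of -2.58 ± 0.04 SE (limma adjusted p = 2.34e-08). Id1 stood at 6.61 and 7.19 FPKM, 2.13-fold under vehicle, at a log2 fold change of -0.98 ± 0.14 SE (limma adjusted p = 0.000501). No library with RA and CHX overlapped a vehicle library for these 3 genes, and the share of all genes without overlap was not counted. Here too 3 of 3 tested members were lower, where 79.3% of 12339 genes were called, 36.1% higher and 43.2% lower. Higher genes were 45.5% of the calls as deposited and 55.3% when quantile normalized, and the 3 members were lower under both.

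Against RA alone, with the RA libraries of the first comparison, Id1, Id3 and Id4 were lower still with CHX present. Id3 was 8.91-fold lower than with RA (log2 fold change -2.91 ± 0.12 SE, limma adjusted p = 9.06e-07) and Id4 was 2.60-fold lower (log2 fold change -1.25 ± 0.04 SE, limma adjusted p = 4.32e-07). Id1 was 1.41-fold lower (log2 fold change -0.43 ± 0.14 SE, limma adjusted p = 0.026). In this comparison 77.6% of 12339 genes were called, 35.1% higher and 42.5% lower, and the share of higher genes among the calls was 45.3% as deposited and 52.6% when quantile normalized. The Id1 call was lost without RA replicate 2 (adjusted p = 0.159), without RA and CHX replicate 1 (0.118) or replicate 2 (0.0603), and after quantile normalization (0.192), within a range of 0.00188 to 0.356 over 16 alternatives.

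Id2 went the other way, at a very low level. It stood at 0.422 and 0.430 FPKM with RA and CHX, above all 4 other treatment libraries, of which the highest held 0.0994 FPKM. The mean was 10.1-fold that of vehicle and 5.43-fold that of RA. Its mean over the 6 libraries was below the level tested. With no filter on low values, limma gave it an adjusted p of 0.000882 against vehicle and 0.00131 against RA, and in 1 fit of all 12 libraries 0.224 and 0.287.

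**Figure D2:**
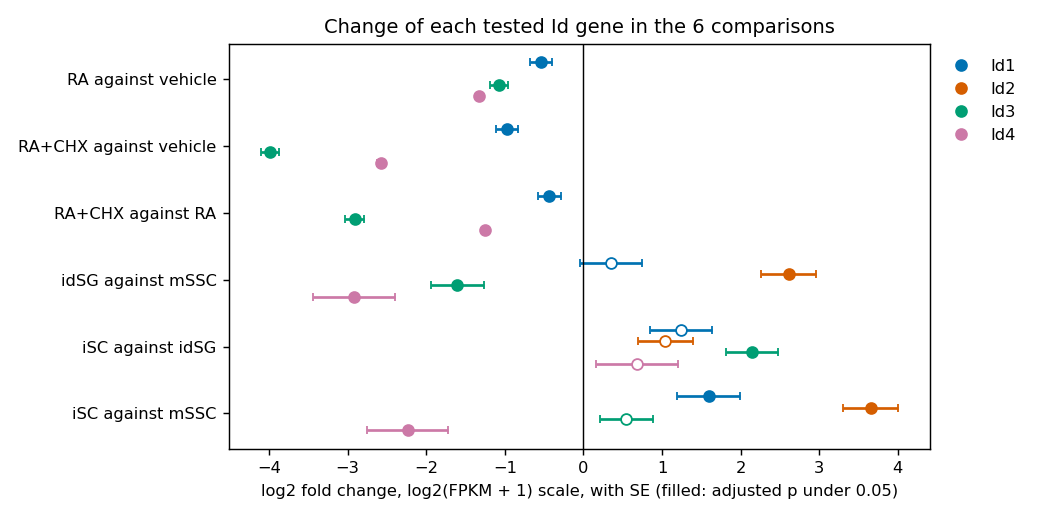
Log2 fold change with SE on the log2(FPKM + 1) scale for each tested Id gene in the 6 comparisons, where filled points had an adjusted p under 0.05. Id1, Id3 and Id4 lay left of 0 in the 3 treatment comparisons, and in iSC against mSSC Id1 and Id2 lay right of 0 and Id4 left of it.

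Induction to idSG was set against mSSC to follow the start of differentiation on Sertoli cells. The 3 induction comparisons share their groups, so they are not independent of each other. Id4 and Id3 fell and Id2 rose. Id4 stood at 2.48 and 2.04 FPKM in idSG against 19.1 and 29.1 FPKM in mSSC, 10.7-fold lower, at a log2 fold change of -2.92 ± 0.52 SE (limma adjusted p = 0.00964). Id3 stood at 20.5 and 10.05 FPKM in idSG, 3.02-fold lower, at a log2 fold change of -1.60 ± 0.33 SE (limma adjusted p = 0.0153). Neither gene overlapped between the groups, which was not counted over all genes. Id2 rose to 6.49 and 11.2 FPKM, 13.9-fold the mSSC mean, at a log2 fold change of 2.61 ± 0.35 SE (limma adjusted p = 0.00427). The fold rests on mSSC libraries of 0.145 and 1.13 FPKM, and was 7.83 without mSSC replicate 1 and 61.0 without mSSC replicate 2. The call was lost with no filter on low values (adjusted p = 0.058), in a range of 0.000139 to 0.058 over 16 alternatives.

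Id1 stood at 24.2 and 10.7 FPKM in idSG, on either side of both mSSC libraries, and its log2 fold change of 0.35 ± 0.40 SE did not pass the test (limma adjusted p = 0.535, 95% interval -0.59 to 1.30). Of the 4 members, 1 was called higher and 2 lower, where 28.6% of 12626 genes were called, 17.9% higher and 10.7% lower. Higher genes made up 62.7% of the calls as deposited and 47.8% of them when the libraries were quantile normalized. The stem and progenitor markers summed to 469 and 427 FPKM in mSSC and 57.5 and 66.1 FPKM in idSG, with 5 of 6 called lower, and their part in the falls of Id3 and Id4 was not tested. The Id3 call was lost without idSG replicate 2 (adjusted p = 0.0638) or mSSC replicate 1 (0.0905), in a range of 0.00189 to 0.111 over 16 alternatives, and Id3 was 4.59-fold lower without idSG replicate 1. The Id4 call was lost without idSG replicate 2 (0.0686) or mSSC replicate 2 (0.0514), in a range of 0.000632 to 0.0911.

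From idSG to iSC, Id3 rose and the other members did not pass the test. Id3 stood at 81.8 and 55.5 FPKM in iSC, 4.50-fold the idSG mean, at a log2 fold change of 2.15 ± 0.33 SE (limma adjusted p = 0.021). In this comparison 11.2% of 12626 genes were called, 4.46% higher and 6.75% lower. The Id3 call was lost without idSG replicate 1 (adjusted p = 0.0786), iSC replicate 1 (0.0751), mSSC replicate 1 (0.0509) or mSSC replicate 2 (0.0502), in a range of 0.000858 to 0.107 over 16 alternatives. The fold was 6.84 without idSG replicate 1. Id1 stood at 53.2 and 29.1 FPKM in iSC, above both idSG libraries, with a log2 fold change of 1.24 ± 0.40 SE (limma adjusted p = 0.0841). Id2 stood at 18.6 and 18.8 FPKM, also above both idSG libraries, with a log2 fold change of 1.04 ± 0.35 SE (limma adjusted p = 0.0922). The number of all genes called, 1415, became 10 without idSG replicate 1, 145 without mSSC replicate 1, 150 without mSSC replicate 2, 144 without iSC replicate 1, 898 without idSG replicate 2 and 1557 without iSC replicate 2.

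Id4 stood at 1.88 and 8.46 FPKM in iSC, below and above both idSG libraries, so the order of these groups is not set by the data (log2 fold change 0.68 ± 0.52 SE, limma adjusted p = 0.389). Without iSC replicate 2 the difference turned to -0.17. Beside this, the 6 stem and progenitor markers summed to 19.9 FPKM in iSC replicate 1 and 117 FPKM in iSC replicate 2, and Zbtb16, a transcription factor gene of undifferentiated spermatogonia, stood at 3.76 and 32.2 FPKM. The library with more Id4 was thus also the one with more of these transcripts, and their part in the Id4 level was not tested.

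Across the whole induction, from mSSC to iSC, Id2 and Id1 rose and Id4 fell. Id2 was 29.4-fold higher in iSC (log2 fold change 3.66 ± 0.35 SE, limma adjusted p = 0.00074), or 16.6-fold without mSSC replicate 1 and 129-fold without mSSC replicate 2. Id1 was 3.32-fold higher (log2 fold change 1.59 ± 0.40 SE, limma adjusted p = 0.0154). Id4 was 4.66-fold lower (log2 fold change -2.24 ± 0.52 SE, limma adjusted p = 0.0117), or 2.85-fold without iSC replicate 1 and 12.8-fold without iSC replicate 2. Both iSC libraries also lay above both mSSC libraries for Id3, but its log2 fold change of 0.55 ± 0.33 SE did not pass the test (limma adjusted p = 0.204, 95% interval -0.24 to 1.33). In this comparison 51.2% of 12626 genes were called, 26.2% higher and 25% lower. The Id1 call was lost without iSC replicate 1 (adjusted p = 0.0848), mSSC replicate 1 (0.0618) or mSSC replicate 2 (0.0623), in a range of 0.00338 to 0.11 over 16 alternatives, and that of Id4 without mSSC replicate 2 (0.0631), in a range of 0.00152 to 0.0959.

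Markers of somatic cells moved with the induction. The 8 Sertoli cell markers (Sox9, Wt1, Gata4, Amh, Cldn11, Dhh, Inha and Ptgds) summed to 3.63 and 3.43 FPKM in mSSC, 206 and 460 FPKM in idSG and 733 and 545 FPKM in iSC. At 1 FPKM or more, 1 of 8 was seen in each mSSC library, 7 and 8 in idSG and 8 in each iSC library. Wt1, a Sertoli transcription factor gene, stood at 1.61 and 0.796 FPKM in mSSC, 39.0 and 66.8 FPKM in idSG and 47.6 and 43.8 FPKM in iSC, whereas Amh, the Sertoli hormone gene, reached no more than 1.35 FPKM. The labels name GFP as a gate in both sorts, and Sertoli transcripts were present in all 4 sorted libraries all the same.

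Between the idSG libraries, replicate 2 held more of the Sertoli transcripts and more Id2, while replicate 1 held more Id1 and Id3. The 11 peritubular and fibroblast markers summed to 64.7 and 194 FPKM in mSSC, 279 and 248 FPKM in idSG and 699 and 530 FPKM in iSC, and mSSC replicate 2, the library with the larger sum, was also that with 1.13 FPKM of Id2. Acta2, the smooth muscle actin gene, stood at 1.14 and 0.243 FPKM in mSSC and at 284 and 152 FPKM in iSC. In idSG against mSSC 4 of 10 tested were called higher and 2 lower, and in iSC against mSSC 6 higher and 1 lower. Of all genes, 26.2% were called higher and 25% lower in iSC against mSSC. The 1 called lower in iSC was Pdgfra (log2 fold change -1.45, limma adjusted p = 0.0129). Lum (-1.95) and Dcn (-0.32) were lower without a call, Dcn with overlap of the groups. The collagen genes Col1a1 (0.87) and Col1a2 (1.53) were called higher. The part of either cell type in the levels of Id1, Id2 and Id3 was not tested.

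Some Leydig cell markers rose with the induction too, and others did not. The 5 listed summed to 2.61 and 2.42 FPKM in mSSC, 35.4 and 73.0 FPKM in idSG and 146 and 102 FPKM in iSC, and most of the mSSC and iSC sums was Star. In iSC against mSSC 2 of 2 tested were called higher, at a median log2 change of 3.88, where 26.2% of all genes were called higher. Star stood at 2.52 and 2.06 FPKM in mSSC and 141 and 93.2 FPKM in iSC. Cyp11a1 stood at 0 and 0.0349 FPKM in mSSC and 4.07 and 6.76 FPKM in iSC (limma adjusted p = 0.00123). Hsd3b1 was listed at 0 in both mSSC libraries and stood at 0.924 and 1.99 FPKM in iSC. Cyp17a1 had 0.114 ± 0.0281 FPKM in mSSC and was at most 0.0349 FPKM in the 4 sorted libraries. Insl3 had 0.0984 ± 0.139 FPKM in mSSC and 0.241 ± 0.341 in iSC, with overlap. The part of any cells carrying these transcripts in the Id levels was not tested. The 7 endothelial markers summed to between 3.27 and 3.86 FPKM in the 4 sorted libraries and between 5.28 and 6.15 FPKM in mSSC, and Pecam1 and Cdh5 stayed at or under 0.892 FPKM in idSG and iSC. The 6 macrophage genes summed to at most 8.64 FPKM in any library. The largest share of each sum was Cd68, a lysosomal protein gene, at 6.89 and 6.62 FPKM in mSSC and 2.05 and 2.34 FPKM in iSC (called lower, limma adjusted p = 0.00236). Its level was 4.66 and 4.74 FPKM in the vehicle libraries, against 7.89 and 7.82 FPKM after RA and CHX (called higher, limma adjusted p = 7.14e-05). Ptprc, the leukocyte marker among them, was at most 0.264 FPKM in the 12 libraries. In the treatment libraries the Sertoli markers summed to between 2.46 and 3.54 FPKM, and the peritubular and fibroblast markers to between 77.1 and 103 FPKM. The endothelial markers summed to 11.3 and 11.1 FPKM with vehicle, 9.81 and 9.86 with RA and 6.66 and 6.97 with RA and CHX, and their part in the falls of Id1, Id3 and Id4 was not tested.

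**Figure D3:**
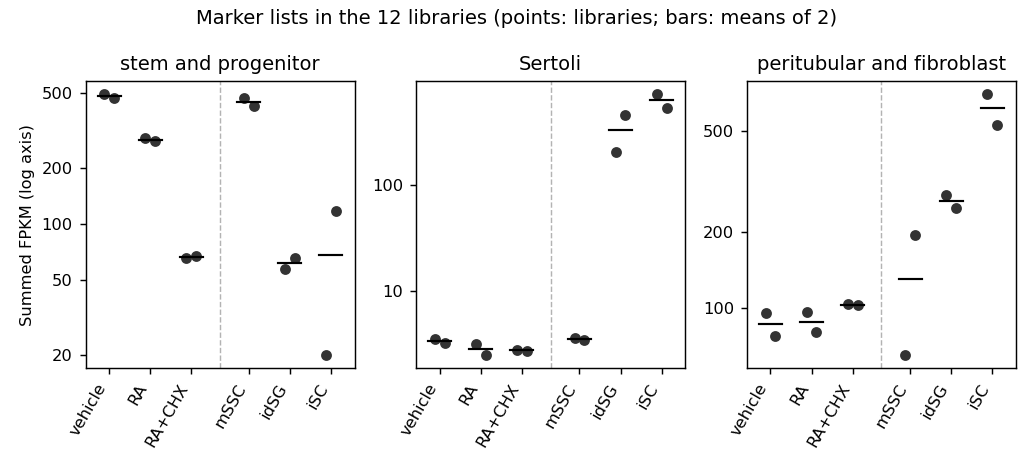
Summed FPKM (log axis) of the stem and progenitor, Sertoli, and peritubular and fibroblast marker lists in each library, with bars for the mean of 2 libraries. Stem and progenitor sums were lower with RA and after induction than in vehicle and mSSC, and Sertoli transcripts were under 4 FPKM in all libraries except the 4 sorted ones.

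The make-up of the family changed with its sum. The 4 members together held 135 and 150 FPKM with vehicle, 64.6 and 67.4 FPKM with RA and 17.2 and 18.9 FPKM with RA and CHX. In the induction experiment they held 83.1 and 83.4 FPKM in mSSC, 53.7 and 33.9 FPKM in idSG and 156 and 112 FPKM in iSC. The sum thus stepped down through the treatments and passed through a low at idSG. Id3 made up 59.8% ± 0.792 of the sum with vehicle and 60.5% ± 0.902 with RA, but 24.7% ± 3.98 with RA and CHX. Id4 went from 28.9% ± 8.33 of the sum in mSSC to 5.32% ± 0.975 in idSG and 4.38% ± 4.49 in iSC, and Id2 from 0.764% ± 0.834 to 22.6% ± 14.8 and 14.4% ± 3.45. In idSG no order held among Id1, Id2 and Id3, as Id1 led in replicate 1 and Id2 in replicate 2.

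**Figure D4:**
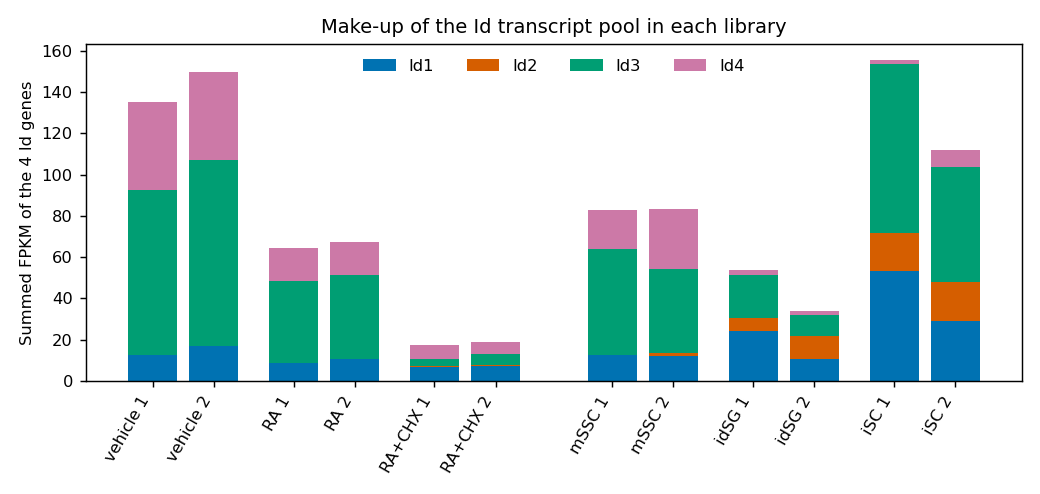
Summed FPKM of the 4 Id genes in each of the 12 libraries, stacked by member. Id3 and Id4 fill most of the bars of vehicle, RA and mSSC, and Id2 is visible as a layer in the idSG and iSC libraries.

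The E protein genes, whose products the Id proteins bind, changed less in the treatments. Tcf3, which encodes E12 and E47, had 127 ± 5.07 FPKM with vehicle, 113 ± 1.18 with RA and 103 ± 0.218 with RA and CHX, and both falls from vehicle were called (limma adjusted p = 0.00684 and 0.000124). Tcf12, which encodes HEB, fell from 46.1 ± 1.05 to 33.8 ± 0.150 FPKM with RA (limma adjusted p = 7.87e-05) and stood at 48.6 ± 0.259 FPKM with RA and CHX, higher than with RA (limma adjusted p = 5.37e-06). Tcf4, which encodes E2-2, stood at 3.87 to 6.45 FPKM in the 12 libraries, with no call by limma in the deposited values and an unadjusted p under 0.05 in 1 comparison, iSC against idSG (0.0272). Scaling moved these small changes. With RA and CHX against vehicle, 1 of the 3 genes was called lower and 0 higher by limma (1 higher at an unadjusted p under 0.05), and under either scaling alternative 1 was called lower and 2 higher. Of all genes, 79.3% were called as deposited, 36.1% higher and 43.2% lower.

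During induction Tcf3 fell from 103 ± 0.161 FPKM in mSSC to 37.7 ± 3.88 FPKM in iSC (log2 fold change -1.42 ± 0.16 SE, limma adjusted p = 0.00121). It stood at 85.2 and 64.4 FPKM in idSG, between the other groups without overlap, and the step from idSG to iSC was called (limma adjusted p = 0.0249). Tcf12 stood at 47.3 ± 0.0377, 37.1 ± 1.68 and 41.8 ± 2.75 FPKM in mSSC, idSG and iSC with no call by limma. In idSG against mSSC 0 of the 3 E protein genes were called by limma, 2 were lower at an unadjusted p under 0.05, and 1 was called lower under either scaling alternative. Of all genes, 28.6% were called as deposited, 17.9% higher and 10.7% lower. The summed Id transcripts were 0.798 ± 0.0376 of the summed E protein transcripts with vehicle, 0.432 ± 0.01003 with RA and 0.115 ± 0.00735 with RA and CHX. The ratio was 0.538 ± 0.00214 in mSSC, 0.373 ± 0.0791 in idSG and 1.58 ± 0.482 in iSC, so in both iSC libraries, and in no other of the 12, the Id sum exceeded the E protein sum on the FPKM scale.

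**Figure D5:**
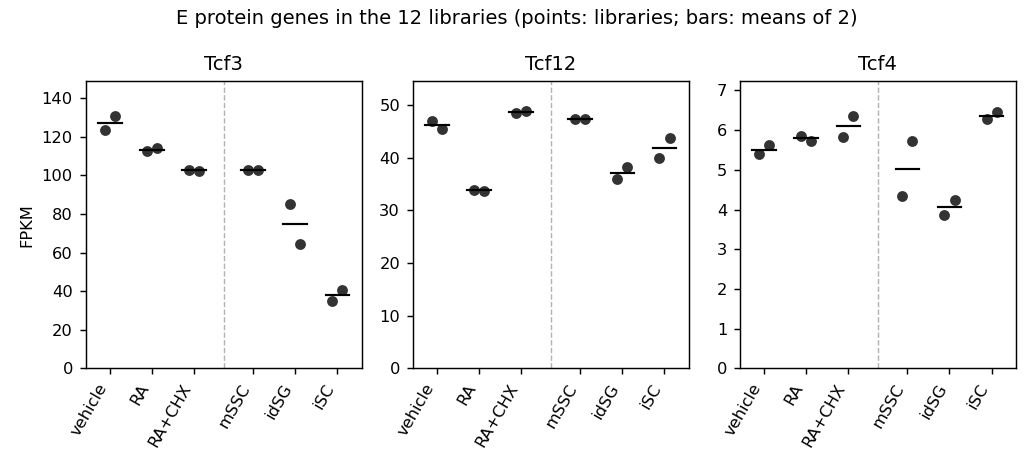
FPKM of the E protein genes Tcf3, Tcf12 and Tcf4 in the 6 groups (axes from 0, a separate range for each panel), with a point for each library and a bar for the mean of 2. Tcf3 stood at 102 and 103 FPKM in mSSC, 85.2 and 64.4 in idSG and 35.0 and 40.5 in iSC, and Tcf12 was lowest in the treatment experiment with RA alone.

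Among the tissue-specific bHLH genes that pair with E proteins, 15 of 42 were expressed highly enough to test in the treatment experiment and 11 in the induction experiment. With RA 0 rose and 5 fell by limma (1 higher and 5 lower at an unadjusted p under 0.05, and 1 and 5 called after quantile normalization). Of all genes tested, 52.7% were called, 22.8% higher and 29.9% lower. The median log2 change of the list was -0.05 beside -0.02 for all genes tested. Twist1, a mesenchymal bHLH gene, fell from 15.0 ± 1.81 to 6.91 ± 0.357 FPKM. With RA and CHX against vehicle 6 rose and 8 fell, where 79.3% of all genes were called, 36.1% higher and 43.2% lower. Figla, an oocyte bHLH gene, rose from 9.87 ± 1.05 to 37.8 ± 0.228 FPKM. In iSC against mSSC 1 of 11 rose and 6 fell, at a median of -0.84 beside -0.03, where 51.2% of all genes were called, 26.2% higher and 25% lower. There Tcf15 fell from 33.6 ± 2.49 to 6.76 ± 5.51 FPKM. Between idSG and iSC, Sohlh1, a bHLH gene of differentiating spermatogonia, fell from 88.9 ± 20.4 to 25.6 ± 6.76 FPKM.

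The Hes, Hey and Bhlhe genes, which encode bHLH repressors, were split. With RA 2 of 7 rose and 3 fell, where 52.7% of all genes were called, 22.8% higher and 29.9% lower. The largest fall was that of Bhlhe41, from 54.1 ± 2.88 to 16.3 ± 0.266 FPKM. With RA and CHX Bhlhe41 stood at 30.6 ± 0.184 FPKM, between the other groups. In iSC against mSSC 4 of 8 rose and 1 fell, where 51.2% of all genes were called, 26.2% higher and 25% lower. The median was 0.70 beside -0.03, and after quantile normalization 2 rose and 1 fell. Bhlhe40 rose from 4.91 ± 2.03 FPKM in mSSC to 62.9 ± 4.05 FPKM in iSC, and Hes1, a Notch target, rose from 32.8 ± 3.74 FPKM in idSG to 77.3 ± 26.5 FPKM in iSC. These are groups in which the Sertoli and fibroblast sums were also high.

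The BMP pathway was read from ligands to targets. Of 14 ligand genes, 3 reached the level tested in the treatment experiment, and Bmp7 was called there, at 15.1 ± 0.810 FPKM with vehicle, 13.2 ± 0.174 with RA and 18.1 ± 0.246 with RA and CHX. During induction Bmp6 rose from 4.90 ± 0.147 FPKM in mSSC to 9.51 ± 0.547 in idSG and 14.4 ± 0.0754 in iSC, while Bmp7 fell from 11.8 ± 0.976 FPKM in mSSC to 3.82 ± 2.85 in iSC. In iSC against mSSC 3 of 6 tested ligand genes rose and 1 fell, and after quantile normalization 2 rose and 1 fell. Of all genes, 51.2% were called as deposited, 26.2% higher and 25% lower.

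Receptor and SMAD genes moved in both directions. With RA 3 of 9 rose and 2 fell, a share near that of all genes (52.7% called, 22.8% higher and 29.9% lower), at a median of -0.08 beside -0.02. The type I receptor gene Bmpr1a fell from 41.3 ± 2.16 to 28.3 ± 0.822 FPKM. With RA and CHX against vehicle 3 rose and 4 fell, where 79.3% of all genes were called, with Acvr2b, a type II receptor gene, falling from 24.0 ± 0.278 to 7.14 ± 0.0740 FPKM. In iSC against mSSC 3 of 10 rose and 1 fell, where 51.2% of all genes were called, 26.2% higher and 25% lower. Bmpr2, the BMP type II receptor gene, rose there from 7.12 ± 0.245 to 32.5 ± 3.34 FPKM. Sertoli and fibroblast sums were also high in idSG and iSC, and the part of such cells in the Bmp6 and Bmpr2 levels was not tested.

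Inhibitors of BMP signalling fell with RA in most tested cases, as 1 of 13 rose and 8 fell at a median of -0.31 beside -0.02. Of all genes, 52.7% were called there, 22.8% higher and 29.9% lower. Fst, which encodes the activin and BMP binding protein follistatin, fell from 20.7 ± 2.68 FPKM with vehicle to 6.66 ± 0.722 with RA and 2.55 ± 0.265 with RA and CHX. Skil, a SMAD co-repressor gene, rose from 11.1 ± 0.229 FPKM to 13.9 ± 1.05 and 29.3 ± 0.0571 in the same order. In iSC against mSSC 6 of 14 rose and 2 fell, where 51.2% of all genes were called, 26.2% higher and 25% lower.

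Other genes that BMP and SMAD signalling is known to raise were listed without the Id genes. With RA 6 of 8 tested fell and 1 rose, where 52.7% of all genes were called, 22.8% higher and 29.9% lower. The median of the list was -0.61 beside -0.02. This list shares Smad6, Smad7 and Bambi with the inhibitor list, so the counts of these lists are not separate. Smad6, an inhibitory SMAD gene, fell from 16.6 ± 0.488 to 9.28 ± 0.418 FPKM. With RA and CHX against vehicle 1 rose and 5 fell, where 79.3% of all genes were called, 36.1% higher and 43.2% lower. The median was -1.20 beside -0.05, and the homeobox gene Dlx3 fell from 44.1 ± 1.43 to 6.10 ± 0.0221 FPKM. In iSC against mSSC 1 of 9 rose and 3 fell, where 51.2% of all genes were called, 26.2% higher and 25% lower. The median was -0.09 beside -0.03, and Dlx3 fell from 14.6 ± 5.03 to 1.25 ± 1.67 FPKM. Id1 and Id2 were called higher and Id4 lower in that comparison, and a link between this list and the Id genes was not tested.

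Of 7 genes that act on Id protein turnover, 0 rose and 4 fell with RA by limma (0 higher and 5 lower at an unadjusted p under 0.05). This was a share near that of all genes, of which 52.7% were called, 22.8% higher and 29.9% lower. The median was -0.12 beside -0.02, and after quantile normalization 1 rose and 1 fell. Cdc20, an activator of the anaphase-promoting complex, rose from 128 ± 0.670 FPKM with vehicle to 206 ± 1.64 FPKM with RA and CHX, and fell from 132 ± 5.84 FPKM in mSSC to 60.8 ± 1.09 FPKM in iSC. Of 7 cyclin-dependent kinase inhibitor genes, some of which E proteins are known to activate, 5 rose and 1 fell in iSC against mSSC. Of all genes, 51.2% were called there, 26.2% higher and 25% lower. The median of the 7 was 1.16 beside -0.03, and after quantile normalization 3 were called, all of them higher. Cdkn1a, which encodes p21, rose from 22.4 ± 12.5 FPKM in mSSC to 247 ± 150 in idSG and 410 ± 105 in iSC. Sertoli and fibroblast sums were also high in idSG and iSC, and the part of such cells in the Cdkn1a level was not tested. With RA Cdkn1a fell from 16.4 ± 0.0882 to 11.2 ± 0.687 FPKM.

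Genes with the profile most like that of each member were picked among 9009 genes by the root mean square (RMS) difference of log2(FPKM + 1) over the 12 libraries, each gene taken about its own mean. The experiments were normalized apart, so this is a description. As the genes were picked on these same 12 libraries, likeness in their values, replicate order included, is favoured by that choice. For Id4 the nearest were Fgd5 (RMS difference 0.29), Mn1 (0.31) and Arhgef15 (0.32), where Id4 itself spread by 1.36 about its own mean. Fgd5 stood at 26.7 FPKM in both vehicle libraries, 8.59 and 8.87 with RA, 2.62 and 2.69 with RA and CHX, and 0.292 and 4.49 in iSC, so it was also higher in iSC replicate 2. In mSSC it stood at 19.3 and 14.3 FPKM, the reverse of the replicate order of Id4, at 19.1 and 29.1 FPKM.

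For Id2 the nearest were Ephx1 (0.14), Tgfb3 (0.15) and Kirrel (0.20), beside a spread of 1.68 for Id2. Ephx1, a xenobiotic epoxide hydrolase gene, stood at 9.58 and 14.4 FPKM in mSSC, 49.6 and 104 in idSG and 133 and 142 in iSC. All 3 neighbours shared with Id2 the higher value in mSSC replicate 2 and in idSG replicate 2, which their choice by likeness to Id2 favours. For Id1 the nearest were Hormad2, a gene of the meiotic chromosome axis (0.31), Xlr4a (0.34) and Pik3r1 (0.34), beside a spread of 0.79. Hormad2 stood at 10.9 and 10.3 FPKM in mSSC, 19.7 and 14.0 in idSG and 40.4 and 27.0 in iSC, with the higher value in the same idSG and iSC libraries as Id1. With RA the likeness did not hold. Hormad2 went from 9.57 ± 1.41 FPKM with vehicle to 10.6 ± 0.209 with RA, and Xlr4a from 19.2 ± 0.247 to 22.9 ± 0.628, while Id1 went from 14.7 ± 3.12 to 9.72 ± 1.53. Id3 had no close neighbour by comparison, as the nearest, B3gnt1, Lhfpl2 and Cbr3, differed from it by 0.69, 0.72 and 0.74, beside a spread of 1.40.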

How the data were processed

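RNA-seq of 12 libraries was used, 2 in each of 6 groups. The deposited files hold FPKM; the submitters' processing notes name TopHat2 2.0.6, Cuffdiff and mm9, and the Cuffdiff version, annotation and scaling options are not stated in the labels. One vehicle file repeats 25 lines, none for a member or listed gene, which were counted once. Values entered as log2(FPKM + 1), which understates changes of low genes. Each experiment was fitted apart in limma 3.58.1 (R 4.3.3) with a mean-variance trend, leaving 3 residual degrees of freedom, on genes averaging 1 FPKM or more in its 6 libraries. The threshold for a call was 0.05 after Benjamini-Hochberg adjustment over all genes tested. The code was tested on simulated data. The members and gene lists were chosen with earlier results of these data known. Named list genes are the called members with the largest rise or fall at a mean of at least 5 FPKM without overlap of the groups, and not every gene so chosen is reported here. The profile search names the 3 nearest genes. Tcf3, Tcf4, Tcf12 and a set of markers are named throughout. Amh, Cyp11a1, Cyp17a1, Hsd3b1, Insl3, Cd68, Pdgfra, Lum, Dcn and later values of genes already named were added after their values were seen. Alternatives were pseudocounts of 0.1 and 0.5, no filter and a filter at 5 FPKM, median-ratio and quantile scaling, no trend, a replicate block, all 12 libraries, the 2 groups alone, and leaving out each library. List counts under the scalings were added after seeing the data.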

Additional observations from a re-analysis of the deposited data

How the results depend on the processing

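Across alternatives, 303 of 342 refits of a member kept their direction and their side of the threshold, 31 lost a call, 6 gained one and 2 reversed. Among the gains, Id2 was not tested in the treatment comparisons and was called there with no filter, with RA and CHX against vehicle (0.45) and against RA (0.40). In 76 of 96 refits the number of genes called stayed within 1.5 times the main number. With 2 libraries in a group, the spread is estimated from few values, and this limits the induction experiment most.

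In 1 fit of all 12 libraries, which shares the spread of both experiments, the calls with RA of Id1 (-0.54), Id3 (-1.07) and Id4 (-1.33) were lost, as was that of Id1 with RA and CHX against RA (-0.43). Those of Id1 (1.24) and Id2 (1.04) in iSC against idSG were gained. The numbers of genes called became 418 for RA against vehicle, 6156 and 5712 for RA and CHX against vehicle and against RA, 6513 for idSG against mSSC and 5205 for iSC against idSG. With no filter, which adds low genes to the test, calls were lost for Id1 with RA (-0.54), Id1 with RA and CHX against RA (-0.43), Id1 in iSC against mSSC (1.59), Id2, Id3 and Id4 in idSG against mSSC (2.61, -1.60 and -2.92), Id3 in iSC against idSG (2.15) and Id4 in iSC against mSSC (-2.24), and 1270 genes were called for idSG against mSSC and 190 for iSC against idSG. Quantile normalization ended the Id1 call with RA and CHX against RA (-0.22) and moved the median of all genes from -0.05 to 0.06 with RA and CHX against vehicle, from 0.05 to -0.06 in idSG against mSSC, and from -0.03 to -0.13 in iSC against mSSC, with every member in its direction under both scalings. On the 2 groups alone, 151 genes were called in iSC against idSG, and Id3 (2.15) lost its call. Differences of replicate 2 from replicate 1 correlated across genes between groups at -0.025 to 0.0918. These low values give no sign that replicate numbers pair the libraries, but cannot exclude it. The replicate block gave Id1 in iSC against idSG (1.24, adjusted p = 0.0486) and Id3 in iSC against mSSC (0.55, adjusted p = 0.0498) a call, and 911 genes in iSC against idSG.

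With each library left out in turn, log2 fold changes ran from -0.75 to -0.34 for Id1 with RA, from -0.58 to -0.29 for Id1 with RA and CHX against RA, from -0.20 to 0.91 for Id1 in idSG against mSSC, which reversed without idSG replicate 1, and from 1.17 to 2.02 for Id1 in iSC against mSSC. For Id2 they ran from 2.17 to 3.06 in idSG against mSSC and from 3.21 to 4.11 in iSC against mSSC. They ran from -2.08 to -1.12 and from -3.21 to -2.63 for Id3 and Id4 in idSG against mSSC, from 1.67 to 2.63 for Id3 and from -0.17 to 1.54 for Id4 in iSC against idSG, which reversed without iSC replicate 2, and from -3.09 to -1.38 for Id4 in iSC against mSSC. The number of genes called ran from 942 to 4199 in idSG against mSSC, from 10 to 1557 in iSC against idSG and from 3442 to 6302 in iSC against mSSC.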

Other observations

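Vehicle-treated cells on laminin and untreated mSSC are both stem cells, but they belong to different experiments, which cannot be told apart from the treatment, so their levels were not tested. Id4 stood at 42.7 and 42.3 FPKM with vehicle and at 19.1 and 29.1 FPKM in mSSC, without overlap. Id3 stood at 80.2 and 90.3 FPKM with vehicle and at 51.2 and 41.1 FPKM in mSSC, also without overlap. Id1 overlapped, at 12.5 and 16.9 FPKM against 12.6 and 12.2 FPKM, and Id2 was higher in mSSC, at 0.145 and 1.13 FPKM against 0.0281 and 0.0566 FPKM. The summed Id transcripts were 135 and 150 FPKM with vehicle and 83.1 and 83.4 FPKM in mSSC.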
